A study of Mus musculus with 2 samples.

Results

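The genes described here are the 50 protein-coding mouse genes whose symbols carry the proteasome stems Psma to Psmg followed by a number, out of 55536 genes in the GENCODE M21 annotation and 22015 protein-coding genes outside the mitochondrial genome. They were chosen by symbol alone and not by any measured value. They comprised 7 alpha-ring subunits of the 20S core, 4 noncatalytic and 3 constitutive catalytic beta subunits, 3 immunoproteasome catalytic subunits, 6 ATPases and 11 further subunits of the 19S regulatory particle, 5 activator genes, 7 assembly chaperones, the inhibitor Psmf1, the thymus subunit Psmb11 and the testis subunit Psma8. The symbol rule also took in Psmc3ip, a meiotic recombination factor that is no proteasome component. A further 4 pseudogenes with symbols of the same kind were left out, and none held more than 0.14 TPM (a transcript level corrected for transcript length and library size).

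The proteasome is the main protease of the cytosol and nucleus and degrades proteins tagged with ubiquitin. Its 20S core is a barrel of alpha and beta rings, and 3 of the beta subunits carry the active sites. The 19S particle binds, unfolds and feeds in the substrate, and other activators can cap the core instead. In cells exposed to interferon gamma, and in many immune cells, Psmb8, Psmb9 and Psmb10 take the places of Psmb5, Psmb6 and Psmb7, which alters the peptides offered to class I antigen presentation. Neurons carry mainly the constitutive form, which takes part in the turnover of synaptic proteins.

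The tissue was left cerebral cortex of B6CASTF1/J males, the first-generation cross of B6 and CAST parents, that were 18 to 20 months old. There were 2 total-RNA libraries, replicates 1 and 2 of a single group, and the labels name no treatment. Both carry 1 donor identifier and differ in biosample identifier, and the labels do not say whether they are separate animals. Whether the spread between them is technical, biological or both therefore cannot be told. Depth, in expected counts summed over annotated genes, came to 22827996 for replicate 1 and 29897545 for replicate 2. All 6 neuronal, 4 astrocyte, 4 oligodendrocyte, 10 microglial and 4 endothelial markers examined were detected, at medians across both libraries of 359.7, 184.6, 142.2, 17.6 and 12.2 TPM in that order. The 10 striatal markers were detected too and summed to 247 TPM in replicate 1 and 472 TPM in replicate 2. The defining markers of the main cortical cell types were thus present, and so were striatal transcripts. Values below are TPM of the first quantification unless a second quantification of the same libraries is named, and errors are SD over the 2 libraries (n = 2).

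At 1 TPM or more in both libraries, 47 of the 50 genes were detected, against 58.5% of all protein-coding genes. The median over the 50 genes was 46.3 TPM in replicate 1 and 46.4 TPM in replicate 2, while the median over all 12868 detected protein-coding genes was 16.8 TPM and 15.4 TPM. Together the 50 genes held 0.458% of the protein-coding TPM in replicate 1 and 0.488% in replicate 2. The 3 genes not detected in both libraries were Psma8, Psmb11 and Psme2b.

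**Figure D1:**
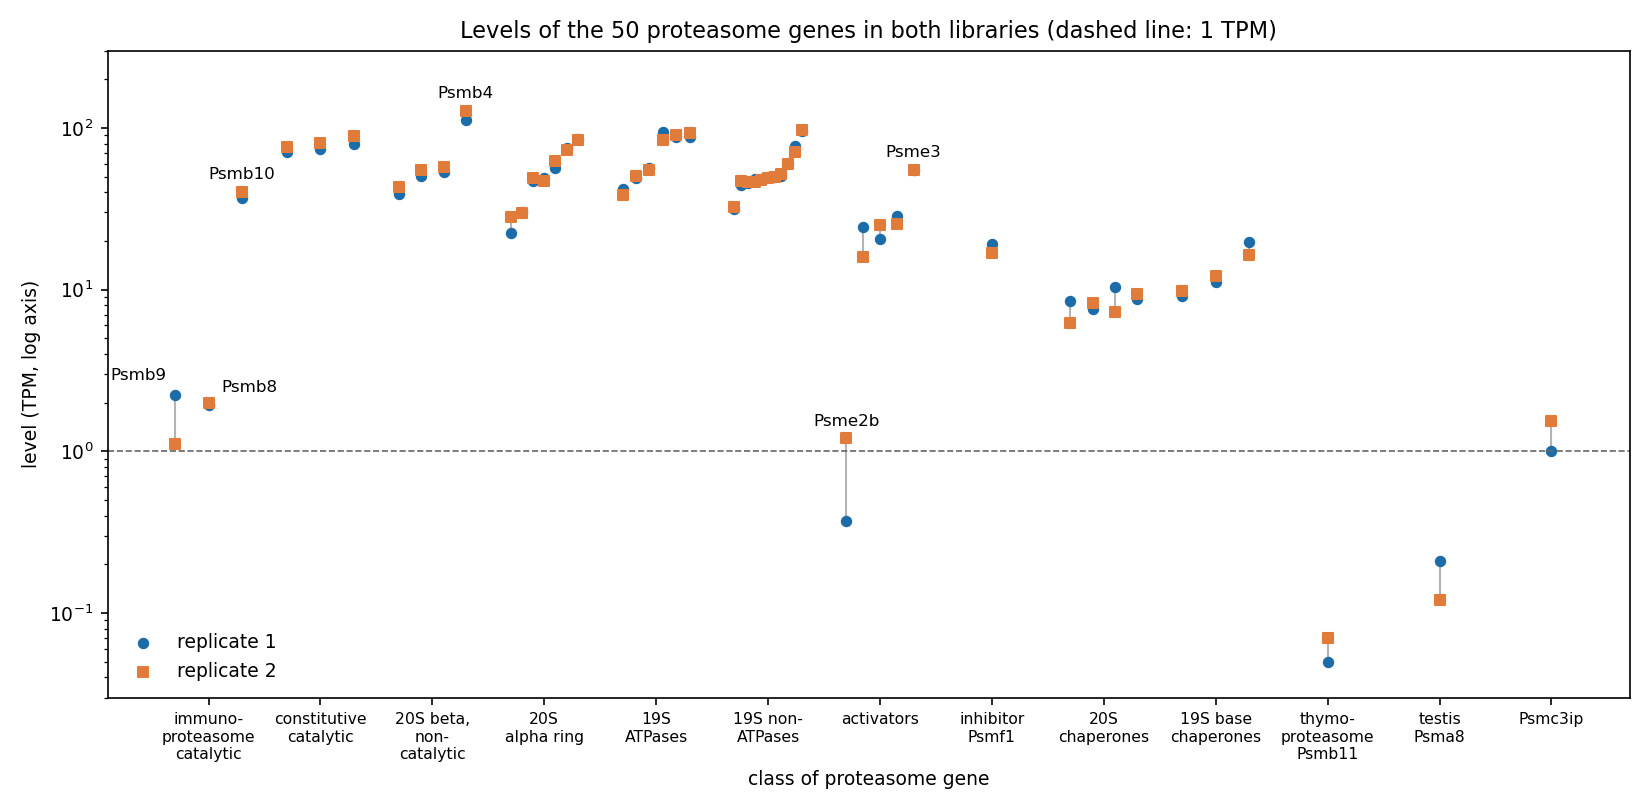
Levels of the 50 genes by class on a log axis in TPM, with replicate 1 as circles, replicate 2 as squares and a line joining the libraries of each gene. Psmb8 and Psmb9 lay near 1 to 2 TPM, whereas Psmb10 lay at 36.8 and 40.1 TPM and the constitutive catalytic subunits between 70.7 and 89.1 TPM.

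The immunoproteasome was unevenly represented. Psmb8, the counterpart of the chymotrypsin-like subunit Psmb5, had 1.93 TPM in replicate 1 and 2.00 TPM in replicate 2, whereas Psmb5 had 70.7 TPM and 75.7 TPM. Psmb9, the counterpart of the caspase-like subunit Psmb6, had 2.24 TPM and 1.11 TPM, whereas Psmb6 had 74.4 TPM and 81.2 TPM. Psmb10, the counterpart of the trypsin-like subunit Psmb7, had 36.8 TPM and 40.1 TPM, whereas Psmb7 had 79.5 TPM and 89.1 TPM. In both libraries each immunoproteasome gene lay below its constitutive partner, and the deposited TPM credibility intervals of the partners did not overlap.

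The log2 ratio of Psmb8 over Psmb5 was -5.22 ± 0.03, so Psmb5 was 37.2-fold higher, and that of Psmb9 over Psmb6 was -5.62 ± 0.81, a 49.3-fold difference. The log2 ratio of Psmb10 over Psmb7 was -1.13 ± 0.03, a 2.19-fold difference. As a share of each pair's summed TPM, Psmb8 made up 2.62% ± 0.06, Psmb9 2.14% ± 1.11 and Psmb10 31.3% ± 0.39. Psmb10 also exceeded Psmb8 by 4.29 ± 0.05 and Psmb9 by 4.61 ± 0.81 on the log2 scale, with no overlap of intervals in either library. Psmb9 and Psmb8 could not be ordered, since their intervals overlapped. The low pair rested on few reads. Psmb8 had 30 and 41 expected counts, with exact Poisson intervals of 20.2 to 42.8 and 29.4 to 55.6. Psmb9 had 28 and 23, with intervals of 18.6 to 40.5 and 14.6 to 34.5. These intervals cover counting error only. In bulk tissue, fewer cells with a transcript and less of it per cell cannot be told apart.

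Psmb8 and Psmb9 lie in the class II region of the major histocompatibility complex on chromosome 17 (GRCm38). Psmb8 (ENSMUSG00000024338.15) spans 34197721 to 34201454 on the plus strand and Psmb9 (ENSMUSG00000096727.3) spans 34181987 to 34187764 on the minus strand, with the peptide transporter gene Tap1 between them. Annotated Psmb9 and Tap1 overlap by 212 bases on opposite strands, and whether strand was used in counting was not given in the sources used here, so their reads may be mixed. Tap1 had 1.85 TPM and 1.33 TPM, as low as Psmb8 and Psmb9. Tap2, 2072 bases from Psmb8 on its other side, was higher, at 6.59 TPM and 4.59 TPM. Psmb10 (ENSMUSG00000031897.9) lies on chromosome 8 at 105935735 to 105938444 on the minus strand. The constitutive partners lie elsewhere, Psmb5 (ENSMUSG00000022193.7) on chromosome 14 at 54614119 to 54618022, Psmb6 (ENSMUSG00000018286.6) on chromosome 11 at 70525367 to 70527858 and Psmb7 (ENSMUSG00000026750.6) on chromosome 2 at 38588036 to 38644087.

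Other genes of class I presentation spanned a wide range. Of the 10 class I and interferon genes examined, 9 were detected, led by B2m, the class I light chain, at 64.9 TPM and 52.1 TPM. The heavy chain H2-K1 had 27.6 TPM and 13.3 TPM. Nlrc5, the class I transactivator, had 1.13 TPM and 0.61 TPM. The summed microglial markers were 179 TPM and 180 TPM. Among 6 lymphocyte markers, Cd4 alone was detected, at 1.52 TPM and 3.69 TPM, and Cd3e, part of the T cell receptor complex, was at 0 in both libraries. The part of microglia or other cells in the levels of Psmb8, Psmb9 and Psmb10 was not tested.

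The TPM of Psmb10 was spread over transcripts of different kinds. Psmb10-201, the coding transcript, had 10.8 TPM in replicate 1 and 9.97 TPM in replicate 2. Psmb10-205, annotated as a retained intron, had 13.0 TPM and 23.1 TPM. Psmb10-203, a processed transcript with no coding annotation, had 10.3 TPM and 4.09 TPM. The coding share of the Psmb10 level was therefore 29.2% and 24.8%, the lowest mean of the 47 detected members in the first quantification, and 34.8% and 38.6% in the second quantification. The intervals of Psmb10-205 and Psmb10-201 overlapped in replicate 1 (6.73 to 18.6 TPM against 8.14 to 11.8 TPM) but not in replicate 2 (15.8 to 27.1 TPM against 7.87 to 11.1 TPM). The second quantification put Psmb10-205 below Psmb10-201, at 18.8 TPM and 12.1 TPM against 22.3 TPM and 25.03 TPM. By reads rather than per length the coding share was larger, with 52.8% and 45.9% of the expected counts of Psmb10 on the coding transcript, and 64.3% and 66.8% of the estimated counts in the second quantification. Psmb10-205 is short, 554 bases against 1311, so each of its reads weighs more in TPM.

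The sequences show how little separates these transcripts. Psmb10-205 begins inside an intron of Psmb10-201 and runs on into the next exon. Psmb10-203 begins in the same intron but skips that exon. Outside the exons of Psmb10-201, Psmb10-205 has 60 of its 554 bases and Psmb10-203 has 48 of 426. Their first bases are given below on the minus strand of GRCm38 from the GENCODE M21 transcripts, with intronic bases in capitals and the first 30 bases shared with Psmb10-201 in lower case. The intronic run of Psmb10-205 is chr8:105936982-105937038 and that of Psmb10-203 is chr8:105936982-105937025.
Psmb10-205: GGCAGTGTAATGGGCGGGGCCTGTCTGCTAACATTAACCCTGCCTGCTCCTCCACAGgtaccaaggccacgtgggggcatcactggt
Psmb10-203: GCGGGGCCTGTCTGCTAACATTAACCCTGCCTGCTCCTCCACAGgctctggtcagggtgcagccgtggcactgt
The capitals of the shorter run are contained in the longer, so these transcripts differ in where they start and in what follows the run.

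With protein_coding transcripts alone, an alternative chosen after seeing the data, the distance between Psmb10 and Psmb7 grew. Coding Psmb10 averaged 10.4 ± 0.55 TPM and coding Psmb7 83.7 ± 6.98 TPM, a log2 ratio of -3.01 ± 0.20 or 8.07-fold. In the second quantification the coding ratio was -2.56 ± 0.05, or 5.88-fold, whereas the ratio over whole genes was -1.12 ± 0.15. In the first quantification Psmb10 made up 12.02% and 10.12% of its coding pair, against 31.6% and 31.1% over whole genes, and in the second it made up 14.8% and 14.2% of its coding pair. Coding Psmb8 averaged 0.84 ± 0.16 TPM and coding Psmb5 73.2 ± 3.53 TPM, a ratio of -6.46 ± 0.34, but in the second quantification the ratio was -5.44 ± 0.21. Coding Psmb9 over coding Psmb6 was -5.79 ± 0.35, and -5.76 ± 0.03 in the second quantification. Psmb10 stayed the highest of the 3 in coding transcripts by both quantifications, and each immunoproteasome gene stayed below its partner.

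**Figure D2:**
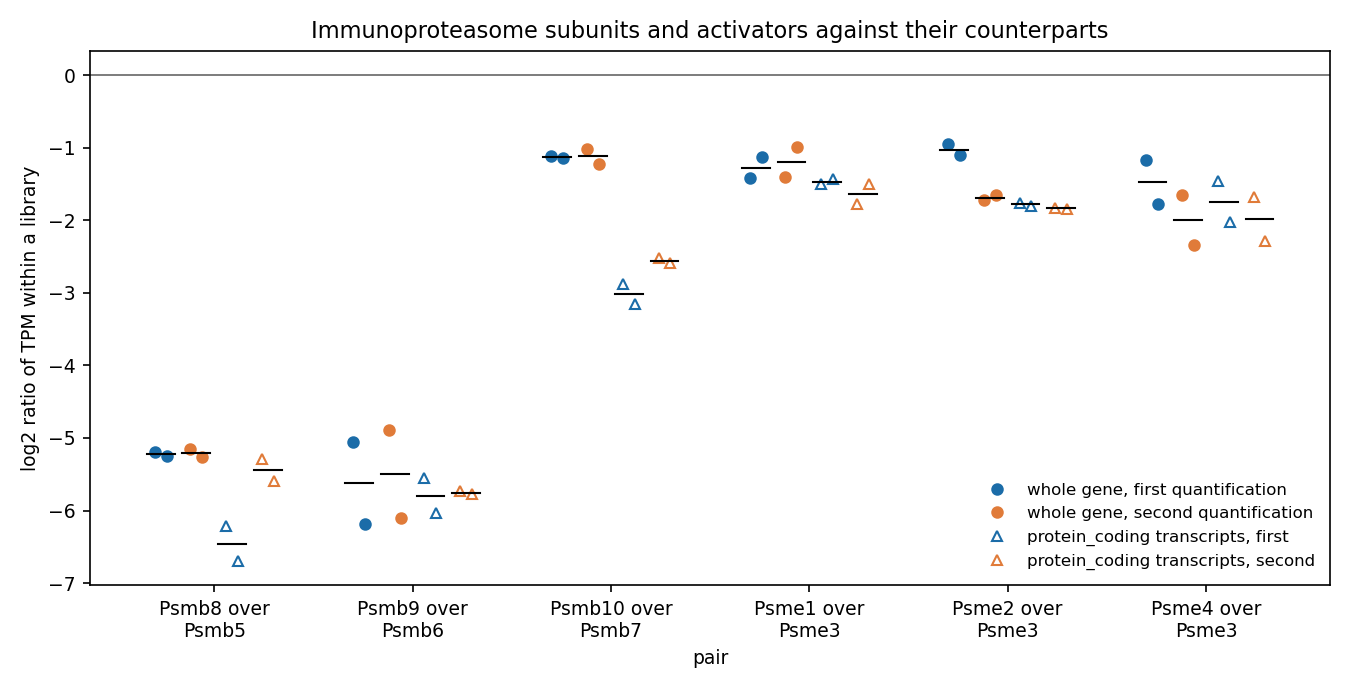
Log2 ratio of TPM of the first gene over the second in 6 pairs, with 1 point per library and a bar at the mean, for whole genes (filled circles) and protein_coding transcripts (open triangles) in the first (blue) and second (orange) quantification. All points lie below 0, and the Psmb10 ratio differs most between coding transcripts (-3.01) and the whole gene (-1.13) in the first quantification.

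The quantifications did not divide the reads of Psmb8 alike. The first gave most of its TPM to the retained-intron transcript Psmb8-205, 0.98 TPM and 1.27 TPM. Of the coding transcripts it left Psmb8-201 at 0.26 TPM in replicate 1 and at 0 in replicate 2. It gave the coding Psmb8-203 0.69 TPM and 0.73 TPM. The second gave Psmb8-201 2.22 TPM and 1.75 TPM and Psmb8-205 0 TPM and 0.30 TPM. The intron that sets Psmb8-205 apart is 190 bases long. Psmb9 was led by coding transcripts in the first quantification, Psmb9-202 in replicate 1 and Psmb9-204 in replicate 2. In the second, the retained-intron Psmb9-205 led in replicate 1 at 1.65 TPM and Psmb9-204 in replicate 2 at 1.34 TPM. With 23 to 41 counts per gene and library, the transcript makeup of Psmb8 and Psmb9 was not resolved at this depth.

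The constitutive catalytic subunits lay in a narrow range in the first quantification. Psmb5 averaged 73.2 ± 3.53 TPM, Psmb6 77.8 ± 4.80 TPM and Psmb7 84.3 ± 6.73 TPM, a 1.15-fold range. The order Psmb5, Psmb6, Psmb7 was the same in both libraries. The intervals of Psmb7 and Psmb5 were apart in replicate 2 (82.3 to 89.97 TPM against 69.4 to 77.7 TPM) but overlapped in replicate 1 (72.0 to 80.5 TPM against 63.2 to 72.7 TPM). In the second quantification Psmb5 averaged 91.5 ± 5.85 TPM, Psmb6 111.5 ± 4.76 TPM and Psmb7 140.5 ± 15.4 TPM, in the same order and further apart. Psmb5 and Psmb7 were almost wholly coding, at 100% and 99.2% of their TPM, and Psmb6 at 85.1%. The noncatalytic beta subunits ranged from Psmb2 at 41.0 ± 3.13 TPM to Psmb4 at 120 ± 10.5 TPM, the highest whole-gene mean of the 50 genes in the first quantification. In the second, Psmc3 at 177.2 ± 0.31 TPM was above Psmb4 at 165.7 ± 5.49 TPM. Only 52.6% ± 1.31 of the Psmb4 level was coding in the first quantification and 59.7% ± 2.66 in the second. Coding Psmb4 was 63.1 ± 3.96 TPM in the first quantification and lay within the spread of coding Psmb6 at 66.2 ± 4.94 TPM. In the second, coding Psmb4 at 99.0 ± 7.69 TPM was above coding Psmb6 at 84.6 ± 1.26 TPM. The retained-intron transcript Psmb4-202, at 37.4 TPM and 39.4 TPM, has only 19 bases outside the exons of Psmb4-201. The second quantification gave Psmb4-202 16.4 TPM and 20.8 TPM, and Psmb4-204 49.1 TPM and 43.1 TPM.

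**Figure D3:**
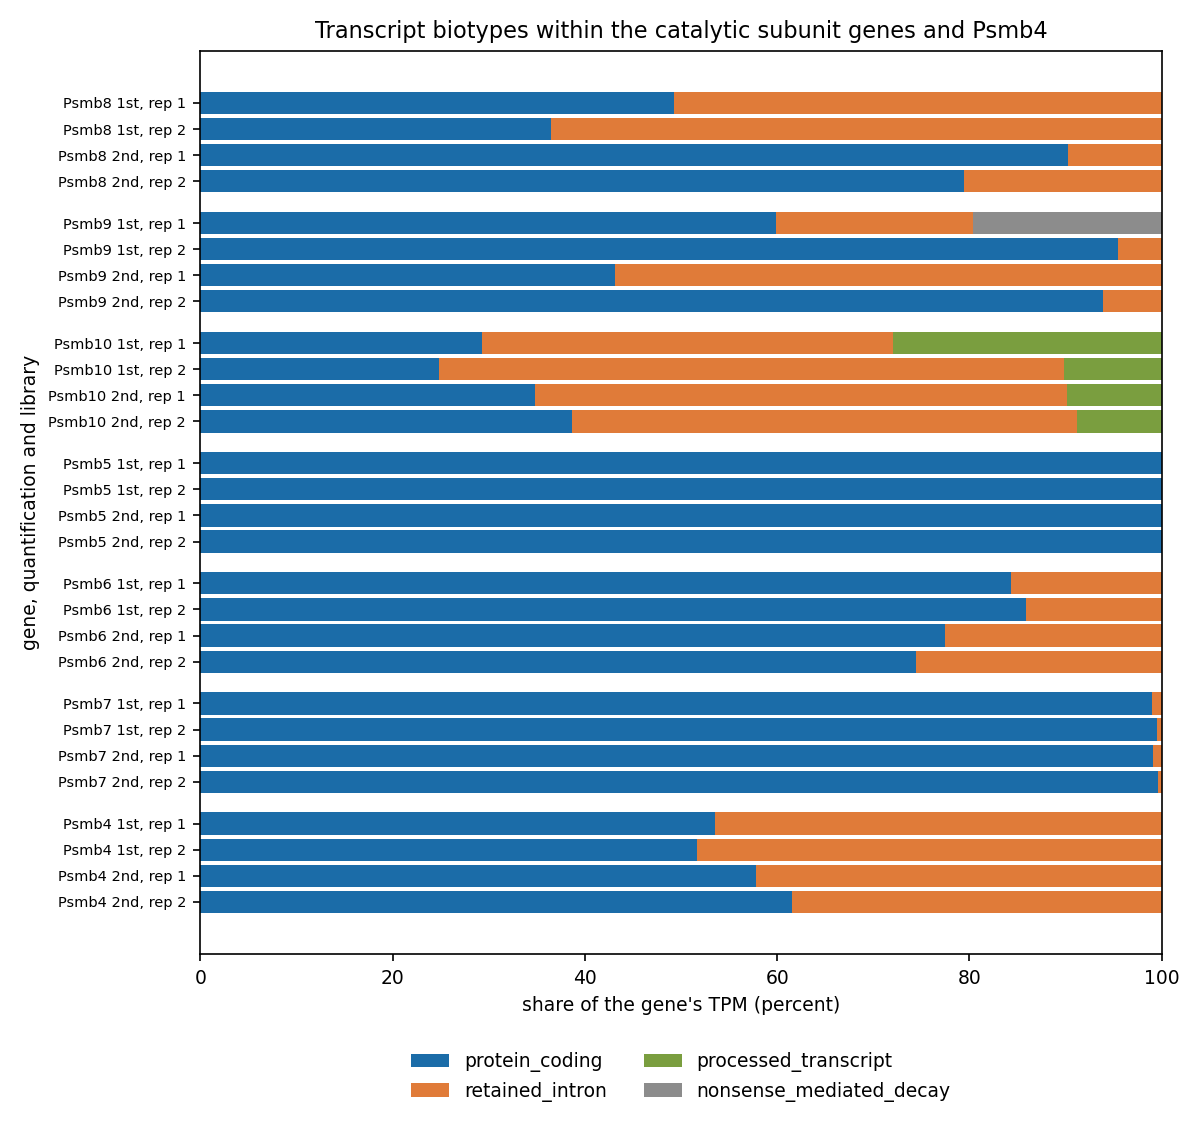
Share of each gene's TPM by transcript biotype, in percent, for the immunoproteasome subunits, the constitutive catalytic subunits and Psmb4, in the first (1st) and second (2nd) quantification of each library. Coding transcripts held 29.2% and 24.8% of Psmb10 in the first quantification, and all of Psmb5 in every bar.

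The alpha ring, which gates entry to the barrel, ranged from Psma2 at 25.4 ± 4.06 TPM to Psma3 at 84.98 ± 0.60 TPM, with a class median of 49.3 TPM and 48.9 TPM. Psma2 overlaps AW209491 on the same strand over 8943 bases, and AW209491 had 11.3 TPM and 10.9 TPM, so the level of Psma2 is uncertain. Psma3 split between coding and other transcripts, with 57.4% of its TPM coding in the first quantification and 7.11% in the second. The first was led by the coding Psma3-204, at 27.6 TPM and 22.4 TPM, to which the second gave no reads, and the second by Psma3-201, annotated for nonsense-mediated decay, at 76.5 TPM and 73.6 TPM. The level of Psma3 as a gene was 157 TPM and 166 TPM in the second quantification.

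The 19S particle was similar in level to the core. The 17 subunits had medians of 49.7 TPM and 50.7 TPM, and the 14 constitutive 20S subunits 54.8 TPM and 59.6 TPM. Among the ATPases, which form the ring that unfolds substrates, Psmc6 was lowest at 40.4 ± 2.47 TPM and Psmc5 highest at 90.4 ± 3.10 TPM. Among the other subunits Psmd12, a lid component, was lowest at 32.0 ± 0.46 TPM and Psmd2, a scaffold of the base, was highest at 96.5 ± 0.81 TPM. The ubiquitin receptor Psmd4 had 77.8 TPM and 71.1 TPM. The deubiquitinase Psmd14 had 48.3 TPM and 46.1 TPM, and its partner in the lid, Psmd7, had 48.2 TPM and 47.4 TPM. All 31 constitutive 20S and 19S genes lay between 22.5 and 127.6 TPM, a 4.73-fold range of means. Psmd13 overlaps the processed pseudogene Gm15542 on the same strand, which held 23.8 TPM and 16.3 TPM beside 49.5 TPM and 48.9 TPM for Psmd13, so these levels are uncertain.

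Among the activators, Psme3 was the highest. Psme1 had 20.6 TPM and 25.2 TPM, and its partner in the interferon-responsive cytosolic cap, Psme2, had 28.6 TPM and 25.6 TPM. Psme4, a large single-chain activator, had 24.5 TPM and 16.0 TPM. Psme3, which forms a nuclear cap, had 55.3 TPM and 55.0 TPM. Psme1, Psme2 and Psme4 each lay below Psme3 in both libraries with no overlap of intervals, by log2 ratios of -1.27 ± 0.21 for Psme1, -1.03 ± 0.10 for Psme2 and -1.48 ± 0.43 for Psme4. Psme1 and Psme2 could not be ordered, since their intervals overlapped. They lie 5911 bases apart on chromosome 14.

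The Psme2 level included a very short transcript. Psme2-203, of 185 bases and annotated as a retained intron, held 9.05 TPM and 6.18 TPM from 5.87% and 3.86% of the gene's expected counts. The second quantification gave it no reads and also moved the lead from the coding Psme2-201 to the coding Psme2-208. In that quantification the Psme2 over Psme3 ratio was -1.69 ± 0.05, and the part of Psme2-203 in this shift was not tested. Over coding transcripts alone the ratio was -1.78 ± 0.04 in the first quantification and -1.83 ± 0.01 in the second. Psme2b, a single-exon gene whose coding sequence is 99.3% identical to that of Psme2, had 0.37 TPM and 1.2 TPM from 4 and 18 rounded counts and lies wholly within Gm12185 on the same strand, so its reads cannot be placed with certainty. In the second quantification Psme2b had 0 and 10.9 estimated counts. The other paired genes were far less alike, from 60.8% identity between the coding sequences of Psme2 and Psme3 to 74.9% between Psma8 and Psma7, and 68.9% between Psmb8 and Psmb5.

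The tissue-restricted catalytic and alpha variants were at the edge of detection. Psmb11, the thymic cortex subunit, had 0.05 TPM and 0.07 TPM from 3 and 6 counts, with exact Poisson intervals of 0.62 to 8.77 and 2.20 to 13.1 counts. Psma8, the testis alpha subunit, had 0.21 TPM and 0.12 TPM from 2 counts and 1 count. Its deposited intervals, 0.30 to 1.55 TPM and 0.18 to 1.08 TPM, lay above these values. They held its posterior mean TPM of 0.88 and 0.59. Their partners Psmb5 and Psma7 lay between 70.7 and 75.7 TPM, with no overlap of intervals. At these counts no fold is given. In the second quantification Psmb11 held 35.0 and 19.9 estimated counts.

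Most assembly factors lay well below the subunits they help to assemble. The 20S chaperones Psmg1 to Psmg4 lay between 6.24 and 10.4 TPM in either library and spanned only a 1.23-fold range of means, from Psmg1 at 7.36 ± 1.58 TPM to Psmg2 at 9.03 ± 0.44 TPM. The base chaperones were Psmd10 at 9.52 ± 0.46 TPM, Psmd9 at 11.7 ± 0.71 TPM and Psmd5 at 18.0 ± 2.31 TPM. In the first quantification each chaperone's level lay below those of the 31 constitutive subunits, though the replicate 1 intervals of Psmd5 (16.0 to 22.6 TPM) and Psma2 (19.7 to 23.6 TPM) overlapped. In the second, Psmd5 at 41.9 TPM and 36.4 TPM was above Psma2 at 29.0 TPM and 30.5 TPM. The maturation factor Pomp, by contrast, had 81.8 TPM and 85.8 TPM. The inhibitor Psmf1 had 19.3 TPM and 16.8 TPM. Psmc3ip had 1.01 TPM and 1.54 TPM, close to the threshold of detection.

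The replicates differed in most members, as in most genes, by less than 0.3 on the log2 scale. With counts scaled by TMM (trimmed mean of M-values, which sets the bulk of genes to no change), 48 members had a mean count of 10 or more, and 41 of them lay within 0.3, as did 11794 of all 14450 tested protein-coding genes. The interval of the replicate 2 over replicate 1 ratio excluded 0 upward in 24 of 48, against 20.2% of all 14450 tested protein-coding genes, and downward in 1 of 48, against 14.8%. The median ratio was 0.16 over the members and 0.03 over all tested protein-coding genes. This describes 2 libraries and has no replicate check.

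The counts of calls by class were not tested against each other, and a call also depends on read depth. All 7 genes Psmb1 to Psmb7 were called higher in replicate 2, by 0.21 to 0.29. Their ratios stayed above 0 under each of the 6 scalings tried, though with spike-ins only 5 of 7 were called. All scalings but the second quantification use the same counts and move every ratio by the same amount. In the alpha ring 3 of 7 were called higher (Psma2, Psma4 and Psma6), in the 19S particle 11 of 17, and of the assembly chaperones 0 of 7, against 20.2% of all tested genes. Psmd10 and Psmg2, both chaperones with few reads, had ratios of 0.20 with intervals that reached below 0. Among the immunoproteasome genes Psmb10 was called higher by 0.20 (0.01 to 0.40), while Psmb8 at 0.08 (-0.63 to 0.81) and Psmb9 at -0.65 (-1.51 to 0.20) were not called. The call of Psmb10 was lost under spike-in scaling, at 0.10, and with centring on the median gene, at 0.17. Past 0.3, Psma2 at 0.30, Psme1 at 0.31 and Psme2b at 1.67 were called higher, 3 of 48 against 4.55% of all genes, and Psme4 was called lower, 1 of 48 against 5.88%. Psma2 and Psme1 stood at that threshold. Psma2 was at 0.298 with DESeq2 size factors, both were under it with centring (0.27 and 0.28) and with spike-ins (0.20 each), and the members past 0.3 upward numbered 1 to 6 over the 6 scalings. Psme4 had 1465 counts in replicate 1 and 1439 in the deeper replicate 2, a ratio of -0.39 (-0.50 to -0.29).

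Scaling by spike-ins moved the median of all genes by -0.10 on the log2 scale. The number of members called higher was then 10 of 48, with 6.73% of all genes called higher, and 2 were called lower, Psme4 and Psmg1, with 29.4% of all genes called lower. Psmb1 to Psmb7 then lay at 0.11 to 0.19, with 5 of 7 called, and Psme1 at 0.20 was not called. Psme4 was called lower under all 6 scalings, from -0.50 to -0.37. Striatal markers were higher in replicate 2 in 10 of 10 genes, with a median log2 ratio of 1.08, and their part in the ratios of the proteasome genes was not tested.

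**Figure D4:**
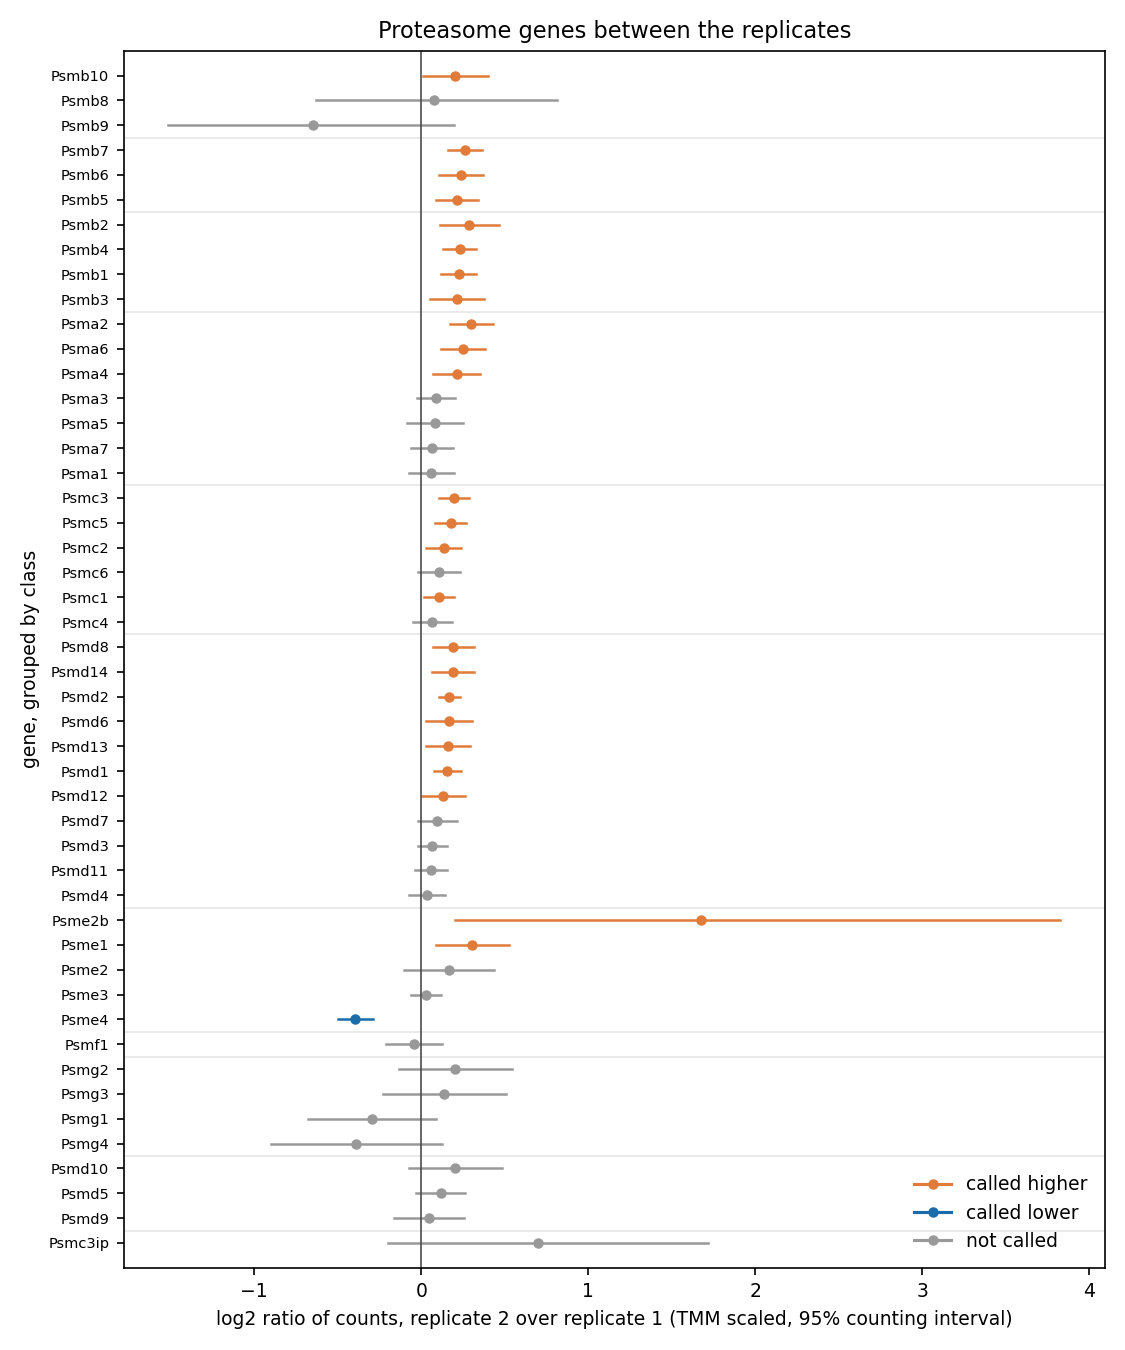
Log2 ratio of counts in replicate 2 over replicate 1 for the 48 tested genes, scaled by TMM, with exact 95% counting intervals and lines between classes. All beta subunits Psmb1 to Psmb7 lie at 0.21 to 0.29, and Psme4 at -0.39 is the only gene called lower.

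Of the 44 members at 5 TPM or more with at least 2 annotated transcripts, 35 were led by the same transcript in both libraries and both quantifications, against 67.8% of 9374 genes chosen in the same way. Between the libraries of the first quantification alone, 43 of 44 kept their leading transcript, against 89.5%, the exception being Psmd5. A protein_coding transcript led 43 of 44, against 90.7%, and the exception was Psmb10. Psma3, Psmc6 and Psmd13 were led by a coding transcript in the first quantification and by a noncoding biotype in the second. Psmb1, Psmd8 and Psme2 changed from 1 coding transcript to another. Psmc4 was led by the coding Psmc4-201 except in replicate 2 of the second quantification, where the retained-intron Psmc4-204 led. Over all 47 detected members the median coding share of TPM was 89.5%, and over all detected protein-coding genes it was 89.1%. In the second quantification these were 80.8% over the members and 86.7% over all genes.

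Whole-gene levels were also set side by side. As deposited, the quantifications were at least 2-fold apart, in either direction, in 5 of 47 detected members, against 12.2% of genes. The second was above the first in all 5. These were Psmc6 by 1.37 on the log2 scale, Psma1 by 1.16, Psmd5 by 1.12, Psme1 by 1.11 and Psme3 by 1.03. The median ratio of second over first was 0.71 over the members and 0.65 over all detected protein-coding genes, and after each table was rescaled to its protein-coding genes it was -0.02 over the members and -0.08 over all. No member was then 2-fold apart, against 1.25% of genes. Across the 47 members, Pearson's r of log2 TPM was 0.986 between quantifications in either library and 0.988 between the libraries, where the members share each library's depth.

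Beyond the members, 25 related proteasome and ubiquitin genes were listed, of which Paaf1 matched no protein-coding gene symbol. The other 24 were analysed here, and all 24 were detected, at a median of 68.7 TPM. Ubb, a polyubiquitin gene, had 727 TPM and 777 TPM, and Nfe2l1, the transcription factor that raises proteasome genes when proteasome activity falls, had 128 TPM and 126 TPM. The 19S ubiquitin receptor Adrm1 had 43.6 TPM and 47.6 TPM, within the range of the 19S members. Of these 24 genes 16 were called higher in replicate 2 and 0 lower, against 20.2% and 14.8% of all tested genes, with a median log2 ratio of 0.13. Of the 10 class I and interferon genes 1 was called higher and 4 lower, against the same shares, with a median of -0.20.

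Promoter windows from RefSeq (GRCm38.p6), each with 250 bases before and 50 after a start, were matched by symbol for 42 members in 45 windows. The letters CCGGAAG, a core bound by ETS factors, were searched on both strands. They occurred in 16 of the 45 windows, against 8.86% of all 32851 windows. By class they occurred in 10 of 15 windows of 19S genes, 0 of 3 immunoproteasome windows and 1 of 12 windows of constitutive 20S genes. The 20S windows covered 11 genes, and the match lay in the downstream window of Psma6. The 19S windows covered 14 genes, and Psmc2 matched in both of its windows. Stretches of 4 such 19S promoters are shown because they carry the match upstream of all annotated exons, with CCGGAAG or its reverse complement CTTCCGG in capitals. Psmd2 is chr16:20651452-20651651 on the plus strand, Psmd4 chr3:95042615-95042814 on the minus strand, Psmc6 chr14:45329588-45329787 on the plus strand and Psmd11 chr11:80428415-80428614 on the plus strand.
Psmd2: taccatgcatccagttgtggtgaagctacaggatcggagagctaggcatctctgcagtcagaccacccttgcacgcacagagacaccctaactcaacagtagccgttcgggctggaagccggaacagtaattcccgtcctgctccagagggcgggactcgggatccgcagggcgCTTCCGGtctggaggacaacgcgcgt
Psmd4: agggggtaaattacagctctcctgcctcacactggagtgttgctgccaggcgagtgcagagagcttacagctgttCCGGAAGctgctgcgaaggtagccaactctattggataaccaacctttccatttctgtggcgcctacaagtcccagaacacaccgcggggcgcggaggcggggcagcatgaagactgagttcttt
Psmc6: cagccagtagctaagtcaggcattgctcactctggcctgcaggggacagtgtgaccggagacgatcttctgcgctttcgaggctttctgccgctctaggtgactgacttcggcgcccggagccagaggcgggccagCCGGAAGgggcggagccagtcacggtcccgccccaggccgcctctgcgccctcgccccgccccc
Psmd11: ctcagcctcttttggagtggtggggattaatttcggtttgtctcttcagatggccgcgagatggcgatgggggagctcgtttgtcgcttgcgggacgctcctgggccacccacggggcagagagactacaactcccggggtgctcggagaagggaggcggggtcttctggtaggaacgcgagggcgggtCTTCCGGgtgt
The match began 26, 125, 100 and 11 bases before the start of Psmd2, Psmd4, Psmc6 and Psmd11 in that order. Stretches of Psmb10 (chr8:105938445-105938642, minus strand), Psmb5 (chr14:54618023-54618222, minus strand) and Psmb6 (chr11:70525157-70525356, plus strand), also upstream of annotated exons, hold no match. Between the last base shown and the start lie 52, 27 and 0 bases in that order. The stretches of Psmb10 and Psmb5 thus leave out the bases nearest the start. The whole windows of these 3 genes held no match either.
Psmb10: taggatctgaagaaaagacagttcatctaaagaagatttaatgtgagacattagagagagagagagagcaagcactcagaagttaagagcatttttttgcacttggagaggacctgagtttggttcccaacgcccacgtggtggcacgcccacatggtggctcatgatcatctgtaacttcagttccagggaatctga
Psmb5: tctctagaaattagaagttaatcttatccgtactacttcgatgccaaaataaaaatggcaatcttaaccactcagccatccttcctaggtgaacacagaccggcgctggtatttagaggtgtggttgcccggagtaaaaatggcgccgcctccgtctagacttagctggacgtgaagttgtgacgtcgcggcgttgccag
Psmb6: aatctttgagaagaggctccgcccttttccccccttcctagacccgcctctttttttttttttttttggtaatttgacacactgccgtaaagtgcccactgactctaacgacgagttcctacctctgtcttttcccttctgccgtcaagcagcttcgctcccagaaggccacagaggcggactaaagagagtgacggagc
The windows of Psmb8 and Psmb9 lie within the annotated spans of these genes and are not shown. They therefore leave out the sequence upstream of the outermost annotated start of each gene. Of the other motifs, CCAAT occurred in 15 of 45 member windows against 37.4% of all, and TTCNNNGAA, a STAT-type core, in 3 of 45 against 8.30%, with Psmb8 among the 3. The interferon-stimulated response core, 2 copies of GAAA with any 2 bases between them, occurred in 5 of 45 against 3.44%. These were windows of Psme1, Psmb3, Psmd4, Psmd9 and Psmg4. None of the 3 immunoproteasome windows held this core or CCGGAAG, but 3 windows are too few to set against shares of 3.44% and 8.86%. TGANTCAGC, a loose pattern for the antioxidant response element with any base at N, occurred in Psmb5 alone, against 1.19% of all windows. The match read TGAATCAGC, 41 bases after the start, and its A at N departs from the usual form of that element. All were searched on both strands, and each motif was counted without regard to overlap with another. A match describes letters in a window and not a bound site, and no match says only that these letters are not in the window.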

How the data were processed

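Gene and transcript tables of 2 libraries of 1 group were used. The expected counts, TPM values, their credibility bounds and isoform percent were deposited by the authors in the column layout of RSEM, per the file headers, and the estimated counts and TPM of the second quantification were deposited in the column layout of kallisto. The assembly is mm10 per the labels, and gene and transcript identifiers were matched to the GENCODE M21 annotation. The aligner, tool versions, interval level and strand use were not given in the sources used here. Both estimates divide reads among transcripts, so overlapping genes and near-identical copies share reads. Effective lengths in the first table are shorter than the transcript by 99 bases, and those of the second by more, so short transcripts are weighted differently.

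Expected counts were rounded. TMM factors (edgeR 4.0.16, R 4.3.3) were 1.01 and 0.993, and 0.5 was added to each count. Ratios between replicates carry exact (Clopper-Pearson) 95% intervals that cover counting error only, as reads are not independent molecules, and genes needed a mean count of 10. The interval script was tested on simulated data. With 1 group there was no test of a condition and no p-value. A pair was called where the deposited TPM intervals were apart in each library with the same gene on top. These intervals need not contain the TPM estimate itself, as in Psma8. DESeq2 1.42.0 size factors, spike-in sums, other thresholds and the second quantification were tried as alternatives. Members named in full were those of the 8 pairs, class extremes, and genes past 0.3 between replicates, 2-fold between quantifications, or led by different transcripts. Genes and lists were chosen with earlier results of these data known. Psma8, Psmb1, Psmb2, Psmb7, Psmc3, Psmd3, Psmd7 and Psmg2 had no promoter entry.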

Additional observations from a re-analysis of the deposited data

How the results depend on the processing

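Detection of 47 members (44 to 48) and the direction of the catalytic pairs held under each alternative run. Psmb8 over Psmb5, -5.22 as reported, was -4.88 with posterior mean TPM, -4.64 with a pseudocount of 1 TPM, -4.87 in counts, -6.46 in coding transcripts and -5.44 in coding transcripts of the second quantification. Psmb10 over Psmb7, -1.13 as reported, was -1.09, -1.83, -3.01 and -2.56 with posterior mean TPM, counts, coding transcripts and their second quantification. Psmb9 over Psmb6 ranged from -6.19 to -5.05 when either replicate was left out. Spike-in scaling called 12 members between replicates, against 25 as reported, with 10 higher and 2 lower, against 24 and 1. The second quantification also gave 2 lower. The 3 members called higher past 0.3 were 2 with DESeq2, 1 with spike-ins or centring, 4 without a count filter and 6 in the second quantification. The 20S median of 57.2 TPM was 95.9 TPM in the second quantification and 126 TPM after rescaling to protein-coding genes, and the 19S median of 50.2 TPM was 84.6 TPM, 48.9 TPM with posterior means and 110 TPM after rescaling. The 5 members 2-fold apart between quantifications became 32 at 1.5-fold, 0 after rescaling, and 6 to 8 with 1 replicate left out. The coding share of 89.5% was 80.8% in the second quantification and 88.6% to 93.3% by replicate. The cause of these shifts was not tested. No paired analysis was possible because the series holds only 1 group. Coding transcripts and centring on the median gene were chosen after seeing the data.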
